A study of Mus musculus with 115 samples.

Results

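The genes of T cells and cytotoxic lymphocytes were followed in prostates of (TRAMP x WSB/EiJ) F2 mice. The set of 10 was drawn by name from the 45699 genes of the expression table and comprised the CD3 chains Cd3e, Cd3d and Cd3g, the co-receptors Cd4, Cd8a and Cd8b1, and the cytotoxic genes Gzma, Gzmb, Nkg7 and Prf1. All 10 were found in the table, and 9 had a mean of at least 0.1 TPM (transcript abundance scaled to one fixed total in every library) and entered the tests. Prf1, with a mean of 0.0915 TPM, did not. Expression was read in RNA-seq libraries of bulk prostate tissue (a part of 79 and a part of 36, defined from their first principal component), each labelled with a different mouse. The paper took organ weight as tumor burden without checking for tumor by pathology, so tumor was not established for each library. Every mouse was an F2 animal of a cross between TRAMP mice and the wild-derived inbred strain WSB/EiJ and carried the TRAMP transgene, in which the SV40 T antigen is expressed in prostate epithelium from a minimal probasin promoter. The labels place all libraries in 1 group, so no contrast between genotypes or treatments was possible, and the age of each mouse was not used here. The mice were males, and small prostates had RNA taken from the ventral lobe only, so the sampled region was not the same in every mouse.

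T cells recognise antigen through a receptor whose signal is passed on by the CD3 chains. Helper T cells carry CD4, and cytotoxic T cells carry CD8, a dimer of an alpha chain (Cd8a) and a beta chain (Cd8b1). Cytotoxic T cells and natural killer cells kill by releasing perforin (Prf1), which opens the target membrane, and granzymes (Gzma, Gzmb), serine proteases that act inside the target, and Nkg7 is a protein of their cytotoxic granules. The levels were set against those of Ptprc, which encodes the leukocyte surface protein CD45, of Mki67, a gene of proliferating cells, and of Chga, which encodes the neuroendocrine granule protein chromogranin A. In bulk tissue, fewer cells of a type and less RNA per cell cannot be told apart.

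These values hold no sequencing depth. The labels give only a minimum of 43000000 read pairs a library, and the counting error of single values is not known. A library had between 10358 and 15824 genes at 1 TPM or more, and the 20 genes with the largest mean share took 48.9% to 81.8% of a library's TPM. On the first principal component, which held 48.7% of the variance of 14623 genes, the libraries fell into separate parts of 79 and 36 (BIC fall of 196, Ashman D of 6.09). Correlations were therefore computed within the 79 libraries and within the 36 libraries, never over both, and no difference between the parts was tested. Prostate luminal markers ranged widely. Tgm4, a secretory transglutaminase, had a median of 2963 TPM and a lowest value of 0.640 TPM. Pbsn, the probasin gene, was listed at 0 in 34 libraries and had a median of 0.730 TPM and a highest value of 3.70 TPM.

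The lymphocyte genes were low in these prostates. Only Cd3g reached 1 TPM in at least 50% of libraries, and in 34 libraries all 10 genes were under 1 TPM. The sum over the 10 genes had a median of 5.02 TPM, from 0.680 TPM in W897 to 104.59 TPM in W1050. Without Gzma the sum of the other 9 had a median of 3.62 TPM and reached 28.07 TPM in W4125. Ptprc had a median of 3.66 TPM (0.600 to 45.06), Mki67 a median of 7.89 TPM (0.390 to 144.47) and Chga a median of 0.570 TPM (0.0600 to 479.05). Rescaling TPM after removal of the 20 top genes raised all other values by a median of 1.57 on the log2 scale, and 4 members then met the detection rule in place of 1.

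Among the CD3 chains, Cd3g ran from 0 to 9.62 TPM with a median of 1.25, and 70 libraries reached 1 TPM. Cd3d ran from 0 to 1.05 TPM with a median of 0.180, and Cd3e from 0 to 1.64 TPM with a median of 0.110. These 3 genes lie together on chromosome 9 (GRCm38), with Cd3g from 44969572 to 44980431, Cd3d from 44981786 to 44987339 and Cd3e from 44998740 to 45009627. A gap of 1354 bases parts the divergent starts of Cd3g and Cd3d. Cd3e shares 135 exon bases with Gm48719 on the opposite strand, and since the counting is not stated to use strand, reads of those bases cannot be told apart. No other member overlapped an exon of another gene, and none had a near-identical copy elsewhere in the transcriptome.

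The co-receptor genes were all under 2 TPM. Cd4 had a median of 0.270 TPM (0.0200 to 1.63), Cd8a a median of 0.240 TPM (0.0300 to 1.76) and Cd8b1 a median of 0.130 TPM (0 to 1.10). Cd4 and Cd8a were listed above 0 in every library. Cd8b1 and Cd8a are neighbours on chromosome 6, 35932 bases apart (Cd8b1 from 71322788 to 71337494, Cd8a from 71373427 to 71379173), and Cd4 lies on the same chromosome from 124864692 to 124888221.

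Of the cytotoxic genes, Nkg7 ran from 0 to 6.18 TPM with a median of 0.750 and Gzmb from 0 to 6.70 TPM with a median of 0.740. Gzma had a lower median of 0.520 TPM and the widest range of the 10, from 0 to 100.02 TPM. Prf1, which the pore-forming step of killing needs, stayed between 0 and 0.50 TPM with a median of 0.0800. These genes lie apart in the genome, Gzma on chromosome 13 (113093825 to 113100981), Gzmb on chromosome 14 (56258838 to 56262260), Nkg7 on chromosome 7 (43437073 to 43438249) and Prf1 on chromosome 10 (61297833 to 61304680). In the order of median levels (Cd3g, Nkg7, Gzmb, Gzma, Cd4, Cd8a, Cd3d, Cd8b1, Cd3e, Prf1) none of the 9 neighbouring pairs differed by more than the SD of their difference across libraries. The nearest to it was Cd3g over Nkg7, higher by a mean of 0.252 ± 0.309 (SD over all libraries) on the log2(TPM + 1) scale, higher in 92 libraries and equal in 6.

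**Figure D1:**
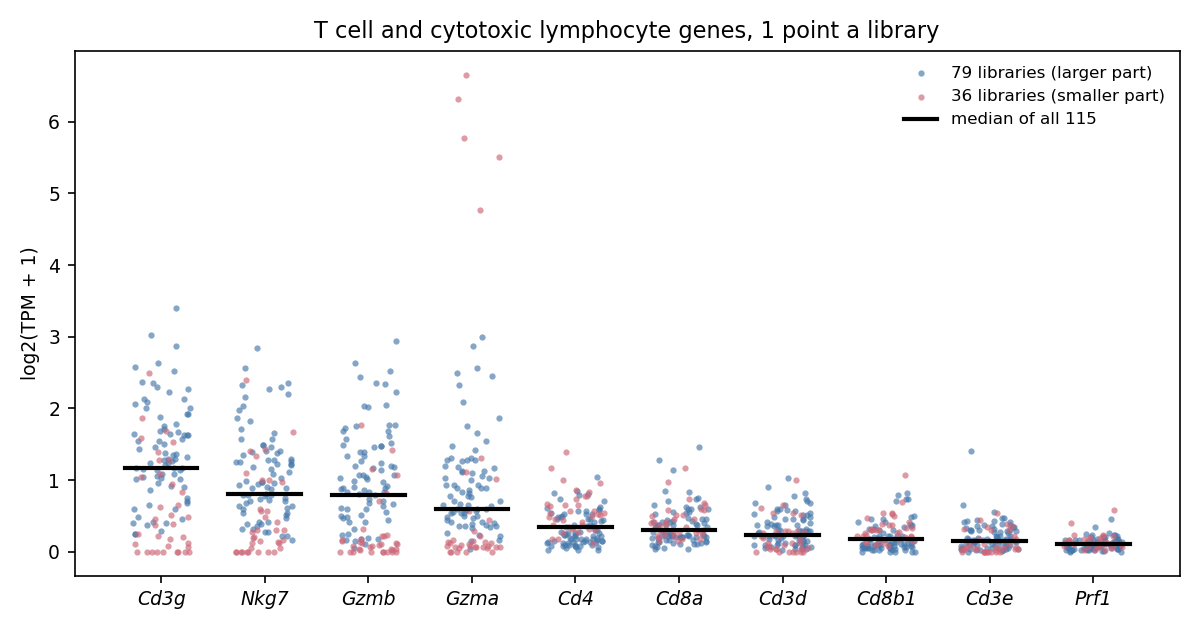
Level of each of the 10 genes as log2(TPM + 1), 1 point a library, coloured by the part of the first principal component the library falls in, with the black bar at the median of all libraries. Cd3g has the highest median (1.25 TPM), and 5 libraries of the smaller part stand apart for Gzma at 26.2 TPM or more.

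Values of 0 fell together in a few libraries. In 92 libraries no member was listed at 0, in 20 libraries 1 to 4 members were, and in 3 libraries 5 were. Those 3 were in the smaller part, as were 16 of the 23 libraries with any member at 0. An exact 0 in an estimated TPM can also be a failed estimate, so only the listing is reported. W897, with the lowest sum, listed Cd3e, Cd3d, Cd3g, Gzmb and Nkg7 at 0 beside 0.290 TPM of Cd4, 113.77 TPM of Mki67 and 62.71 TPM of Chga.

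A few libraries carried the high values. W4386 was among the 10 highest libraries for 9 members, W4125 for 8, and W4181 and W4437 for 7 each. W4125 held the highest Cd3e (1.64 TPM), Cd3g (9.62), Cd8a (1.76), Gzmb (6.70) and Nkg7 (6.18) of all libraries. Its Cd3e stood apart from the other 78 libraries of the larger part, of which the highest was at 0.570 TPM. W4437 in the smaller part held the highest Cd4 (1.63 TPM) and Cd8b1 (1.10 TPM).

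Ratios within a library are free of the TPM scaling and showed how far the genes of 1 complex ran together. They were taken where both genes were at 0.1 TPM or more. Cd3g exceeded Cd3e in 64 of 64 libraries with a median ratio of 8.55 (1.37 to 35.5), and exceeded Cd3d in 80 of 80 with a median ratio of 6.21. Cd3d and Cd3e were closer, with a median ratio of 1.56 and 33 of 54 libraries within 2-fold. The CD8 chains had a median Cd8b1/Cd8a ratio of 0.691 (0.185 to 2.38), and 50 of 70 libraries were within 2-fold. Cd8a/Cd4 had a median of 0.884, with Cd8a the higher in 40 of 92 libraries. It ran from 0.0880 in W1182 to 7.46 in W1915. Gzma/Gzmb had by far the widest spread, from -5.31 on the log2 scale in W4181 to 8.85 in W1790, with an SD of 2.50 on that scale against 0.669 for Cd8b1/Cd8a.

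The neighbours Cd3g and Cd3d were called together in both parts. The granzymes Gzmb and Gzma were not called together in the 79 libraries and, in the 36, were called once the 5 libraries of highest Gzma were left out. Whether their sequence has a part in these calls was not tested. The stretches upstream of these 4 members are shown. Each is the 250 bases before the RefSeq gene start on GRCm38.p6, written 5′ to 3′ on the gene's strand. Capitals mark matches, on either strand, to RUNX (TGTGGT), ETS (AGGAAG), AP-1 (TGANTCA) or T-box (GGTGTGA) letters; no 2 of these matches overlap.
Cd3g promoter, chr9:44980432-44980681 (- strand): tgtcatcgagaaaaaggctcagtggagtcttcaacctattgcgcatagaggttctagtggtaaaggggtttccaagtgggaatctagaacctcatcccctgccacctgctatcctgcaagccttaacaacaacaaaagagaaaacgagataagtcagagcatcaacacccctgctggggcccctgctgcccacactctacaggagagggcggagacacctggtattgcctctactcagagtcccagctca
Cd3d promoter, chr9:44981536-44981785 (+ strand): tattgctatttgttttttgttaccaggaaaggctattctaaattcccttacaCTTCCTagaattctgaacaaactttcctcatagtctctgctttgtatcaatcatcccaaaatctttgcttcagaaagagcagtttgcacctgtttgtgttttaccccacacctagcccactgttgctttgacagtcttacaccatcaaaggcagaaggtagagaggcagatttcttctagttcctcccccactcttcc
Gzmb promoter, chr14:56262335-56262584 (- strand): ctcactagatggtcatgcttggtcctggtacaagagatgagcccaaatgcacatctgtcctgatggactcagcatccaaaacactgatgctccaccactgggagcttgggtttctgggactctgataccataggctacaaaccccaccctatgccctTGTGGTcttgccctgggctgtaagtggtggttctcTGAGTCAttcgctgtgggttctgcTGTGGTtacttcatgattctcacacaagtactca
Gzma promoter, chr13:113100982-113101231 (- strand): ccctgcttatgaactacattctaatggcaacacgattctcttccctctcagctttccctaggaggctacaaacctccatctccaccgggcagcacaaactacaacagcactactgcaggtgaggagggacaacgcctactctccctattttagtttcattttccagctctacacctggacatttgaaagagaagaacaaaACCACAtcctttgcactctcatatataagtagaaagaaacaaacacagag

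Of 32851 RefSeq promoters, the same length of window held the RUNX letters in 14%, the ETS letters in 29.5%, the AP-1 letters in 6.75% and the T-box letters in 3.33%. The Gzmb window held RUNX letters 93 and 34 bases before the start and AP-1 letters at 58. In the Gzma window the RUNX letters stood 50 bases before the start, with none of the other 3. The Cd3d window held ETS letters at 198, and the Cd3g window held none of the 4. The E-box letters CANNTG, found in 66.2% of promoters and not capitalised, occurred 3 times for Cd3g, once for Cd3d, and 2 and 3 times for Gzmb and Gzma. Windows were found for 8 of the 10 members. Cd4 and Cd8b1 had none in the table. These matches are descriptions of sequence only.

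Most pairs of members varied together, in the 79 libraries all but those with Gzma. A pair was called when Pearson's r on log2(TPM + 1) had an adjusted p under 0.05 (100000 permutations, Benjamini-Hochberg over all genes) with each member in turn as the reference. In the 79 libraries 28 of 36 pairs were called, all positive, and these were the 28 pairs without Gzma. The background was high, since 49.1% of all comparisons of a member with any gene were called positive there. The smaller part had 19 of 36 pairs called, all positive, against 11.7% of such comparisons. None of the 8 pairs with Gzma was called in either part over all libraries. In the smaller part this depended on a few libraries. Without the 5 of highest Gzma, Gzma was called positive with Cd3e, Cd3g and Gzmb (adjusted permutation p = 0.0376, 0.0313 and 0.0318), and without W4437 with Cd3d and Nkg7 (adjusted permutation p = 0.0237 and 0.0161). Without the 4 libraries of lowest Chga it was called with none. By rank over all 36, pooling the groups of some partners, rho of Gzma was 0.687 with Gzmb, 0.617 with Nkg7, 0.588 with Cd3g, 0.547 with Cd3d and 0.0904 with Cd4, with unadjusted permutation p of 3e-05, 1.50e-04, 2.70e-04, 7.60e-04 and 0.598. Cd4 was called with 7 of its 8 partners in the 79 libraries and with none in the 36.

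By the rule used for the principal component, several genes were split into groups of libraries inside a part, called separate here. No r is printed over such groups, although the counts above include them. In the 79 libraries these were Cd4 (46 at up to 0.210 TPM and 33 from 0.230 TPM), Cd8b1 (58 and 21), Gzma (69 and 10) and Chga (72 and 7). In the 36 libraries they were Cd3e (25 and 11), Cd3g (16 and 20), Gzmb (30 and 6) and Nkg7 (22 and 14). Several of these groups adjoin. In the 79, Cd8b1 lay at up to 0.170 and from 0.200 TPM, and Gzma at up to 1.91 and from 2.17. In the 36, Cd3g lay at up to 0.160 and from 0.190 TPM, while Gzmb left a wider gap (0.250 and 0.640). Distinct kinds of library are thus not established. Each group holds less of the gene's range and fewer libraries, so a missing call inside it does not tell against a relation over the part.

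Of the pairs that could be read, all 15 among Cd3e, Cd3d, Cd3g, Cd8a, Gzmb and Nkg7 were called in the 79 libraries, with r from 0.648 to 0.895 and a median of 0.801. The highest was Cd3g with Nkg7 (r = 0.895, adjusted permutation p = 3.43e-05; rho = 0.867, and r = 0.875 with the 2 most extreme libraries of Cd3g left out). Gzmb and Nkg7 followed at r = 0.887, and Cd8a and Nkg7 at r = 0.856. The divergent neighbours Cd3g and Cd3d had r = 0.801 (rho = 0.790). The lowest of the 15 was Cd3e with Cd3d at r = 0.648. Without W4125 all 28 pairs were still called. In the 36 libraries the 3 called pairs among the readable ones were Cd8a with Cd8b1 (r = 0.824, adjusted permutation p = 0.0137; rho = 0.658), Cd3d with Cd8b1 (r = 0.797) and Cd3d with Cd8a (r = 0.766). All 3 lost the call without W4437, the library with the highest Cd4 and Cd8b1. Their r was then 0.723, 0.670 and 0.647, and the pairs called in the smaller part fell from 19 to 12.

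**Figure D2:**
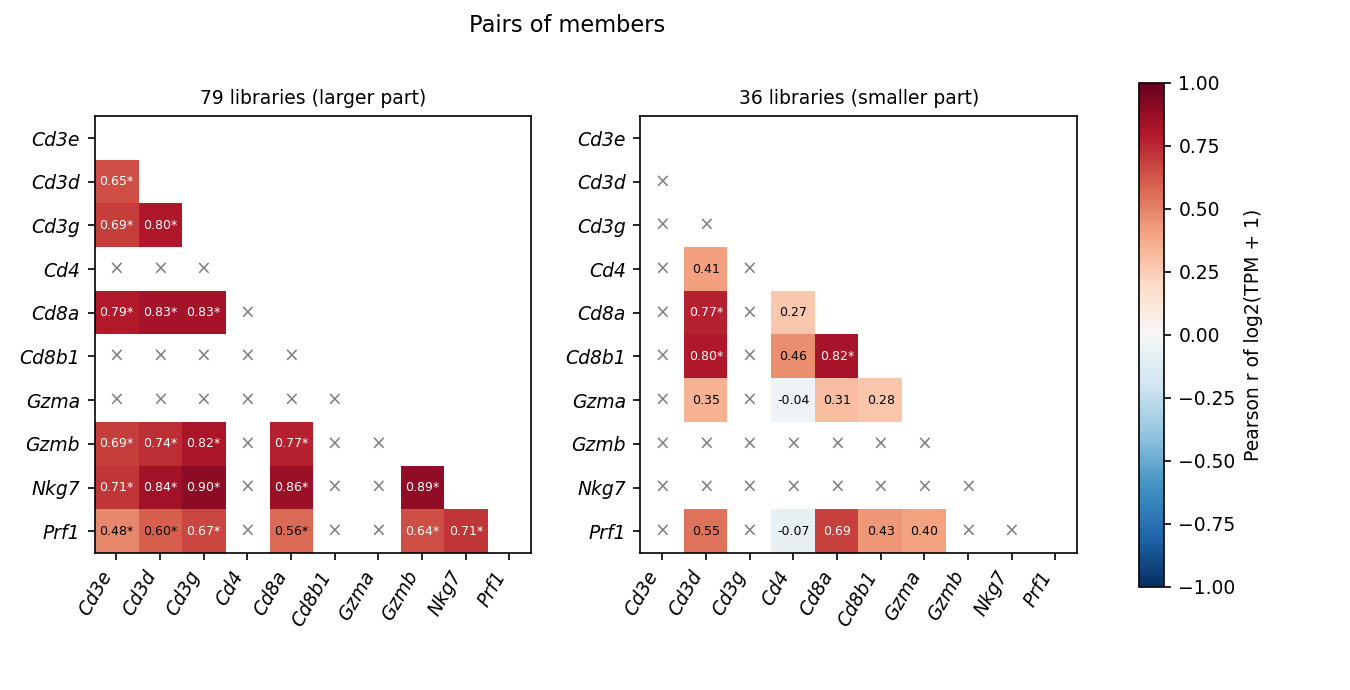
Pearson r of log2(TPM + 1) for each pair of members in the 79 libraries (left) and the 36 libraries (right), from blue at -1 to red at 1. A star marks an adjusted permutation p under 0.05 both ways, and a cross a pair in which a gene fell into separate groups of libraries, for which no r is given. Values for Prf1 come from the fit with no filter on low values. The 15 pairs of Cd3e, Cd3d, Cd3g, Cd8a, Gzmb and Nkg7 are all starred on the left.

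In the 79 libraries the members were higher where Ptprc was higher, and so were most genes. Of 9 tested, 8 were called positive and none negative, with Gzma the exception, while 75.9% of all genes were called positive. A count of 8 of 9 is near that share. The median r was 0.625 for the members and 0.459 for all genes. Nkg7 had r = 0.736 (adjusted permutation p = 2.21e-05; rho = 0.808), Cd3g r = 0.711 (rho = 0.782) and Gzmb r = 0.658 (rho = 0.689). Cd3d had r = 0.632, Cd8a r = 0.625 and Cd3e r = 0.517. The permutation p of 1e-05 behind these, other than 3e-05 for Cd3e, was the smallest that 100000 permutations can give. With the 2 most extreme libraries of Ptprc left out, the 6 values were higher, between 0.545 and 0.802. Prf1, tested only without the filter on low values, had r = 0.629 (adjusted permutation p = 3.63e-05). Among the 46 libraries of lower Cd4, Cd4 was called with Ptprc (r = 0.445, adjusted permutation p = 0.00528; rho = 0.485), and among the 33 of higher Cd4 it had r = 0.288 (adjusted permutation p = 0.152). Cd8b1 was not called inside either of its groups (r = 0.131 in 58 and 0.211 in 21 libraries). Over the whole part Cd4 and Cd8b1 were both among the 8 called.

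Against Mki67 in the same 79 libraries, 8 of 9 members were called positive, none negative and Gzma again not called, while 55.9% of all genes were called positive. The median r was 0.616 for the members and 0.301 for all genes. Gzmb had r = 0.769 (adjusted permutation p = 3.33e-05; rho = 0.805), Nkg7 r = 0.765 (rho = 0.790) and Cd3d r = 0.695 (rho = 0.686). Cd3g had r = 0.679, Cd8a r = 0.616 and Cd3e r = 0.514. With the 2 most extreme libraries of Mki67 left out, the 6 values lay between 0.489 and 0.766. Leaving out W4125, with the highest Cd3e but only 6.31 TPM of Mki67, moved Cd3e to r = 0.657. Prf1 had r = 0.435 in the fit with no filter. Cd4 was not called inside either of its groups, with r = 0.118 in 46 libraries and -0.0230 in 33. Nor was Cd8b1, with r = 0.197 in 58 libraries and 0.262 in 21. Under median-of-ratios scaling and after removal of the 20 top genes 7 members were called, in the same direction.

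Chga fell into separate groups in the larger part, and no member was called with it, against 16.7% of all genes called in either direction. Inside the 72 libraries with Chga at up to 0.810 TPM, r lay between -0.185 for Gzma and 0.0868 for Cd4, and the smallest adjusted permutation p was 0.463.

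In the 36 libraries of the smaller part all 9 tested members were called positive with Ptprc, while 26.5% of all genes were. The median r was 0.622 for the members and 0.0788 for all genes. Cd3d had r = 0.744 (adjusted permutation p = 1.68e-04; rho = 0.756), Cd8a r = 0.578 (rho = 0.519) and Cd8b1 r = 0.571 (rho = 0.550). Cd4 had the lowest, r = 0.404 (adjusted permutation p = 0.0369), and lost the call without W4437 (r = 0.316) or without W1790 (r = 0.353). Prf1 had r = 0.490 in the fit with no filter (adjusted permutation p = 0.0101). For the genes that separated, the relation was read inside each group of libraries. Nkg7 was called in its 22 lower libraries, at up to 0.240 TPM (r = 0.759, adjusted permutation p = 0.00278). It had r = 0.633 in its 14 higher ones (adjusted p = 0.242). Gzmb was called in its 30 lower libraries, at up to 0.250 TPM (r = 0.801, adjusted permutation p = 2.13e-04). The counting error at such low levels is not known. Cd3g was called in its 20 higher libraries (r = 0.682, adjusted permutation p = 0.0171). Cd3g was not called in its 16 lower libraries (r = 0.0330), and Cd3e in neither of its groups (r = 0.410 in 25 and 0.388 in 11).

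With Mki67 the same 36 libraries gave r below 0 for all 9 members. Called negative were 6 of them, Cd3e, Cd3d, Cd3g, Gzma, Gzmb and Nkg7, while 17.6% of all genes were called negative. The median r was -0.465 for the members and 0.0245 for all genes. Cd3d had r = -0.469 (adjusted permutation p = 0.0156; rho = -0.660), and r = -0.574 with the 2 most extreme libraries of Mki67 left out. Nkg7 was called inside its 22 lower libraries (r = -0.512, adjusted permutation p = 0.0477) and Gzmb inside its 30 lower ones (r = -0.450, adjusted permutation p = 0.0417). Cd3e and Cd3g were called in neither of their groups. Cd4 had r = -0.188, Cd8a r = -0.298 and Cd8b1 r = -0.315, none of them called. Without W4419 the call for Gzmb was lost (r = -0.390, adjusted p = 0.0563), and without W370 that for Gzma (r = -0.311, adjusted p = 0.120). Other genes went the same way: 9 of 10 pan-leukocyte, 9 of 10 macrophage, 7 of 10 stroma and 7 of 10 prostate luminal genes were also called negative with Mki67 in this part. The summed TPM of the proliferation list had r = -0.150 with Cd3d (rho = -0.0229, adjusted permutation p = 0.431 over 100 relations) and -0.0298 with Gzma (adjusted permutation p = 0.900), and r = 0.632 with Mki67 (rho = 0.376). The part of these genes in the relations of the members was not tested. The difference in sign between the 79 and the 36 libraries was not tested.

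**Figure D3:**
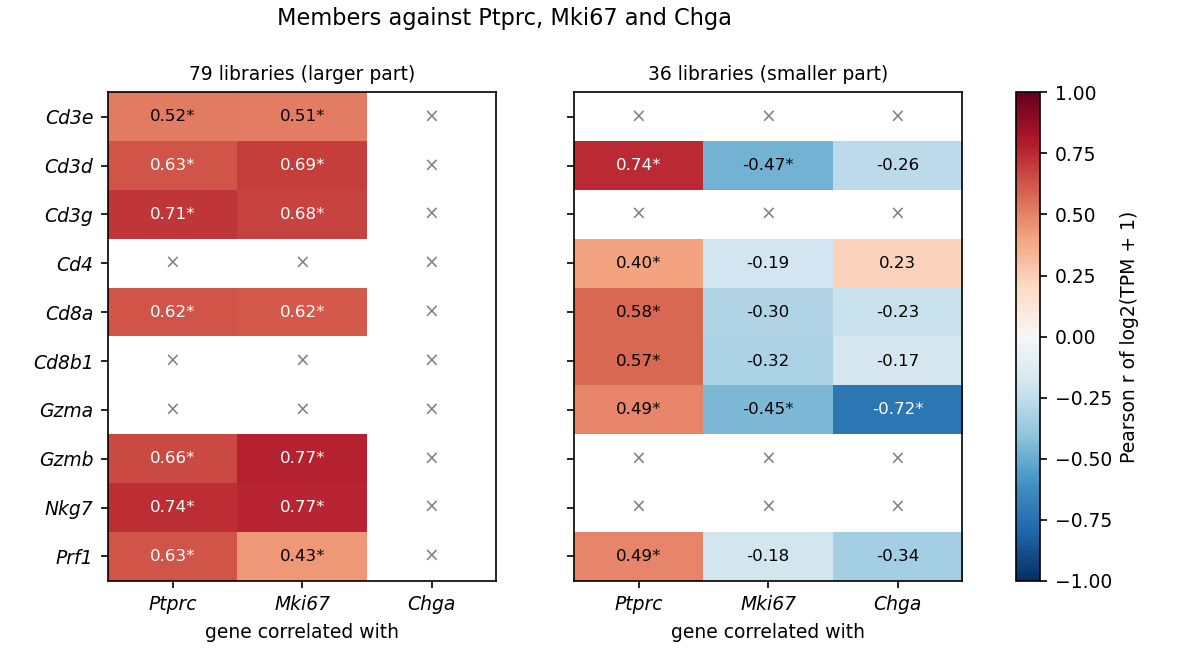
Pearson r of log2(TPM + 1) of each member (rows) with Ptprc, Mki67 and Chga (columns) in the 79 libraries (left) and the 36 libraries (right), from blue at -1 to red at 1. A star marks an adjusted permutation p under 0.05, and a cross a pair in which a gene fell into separate groups of libraries, for which no r is given. The Mki67 column is positive on the left (0.435 to 0.769) and negative on the right.

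**Figure D4:**
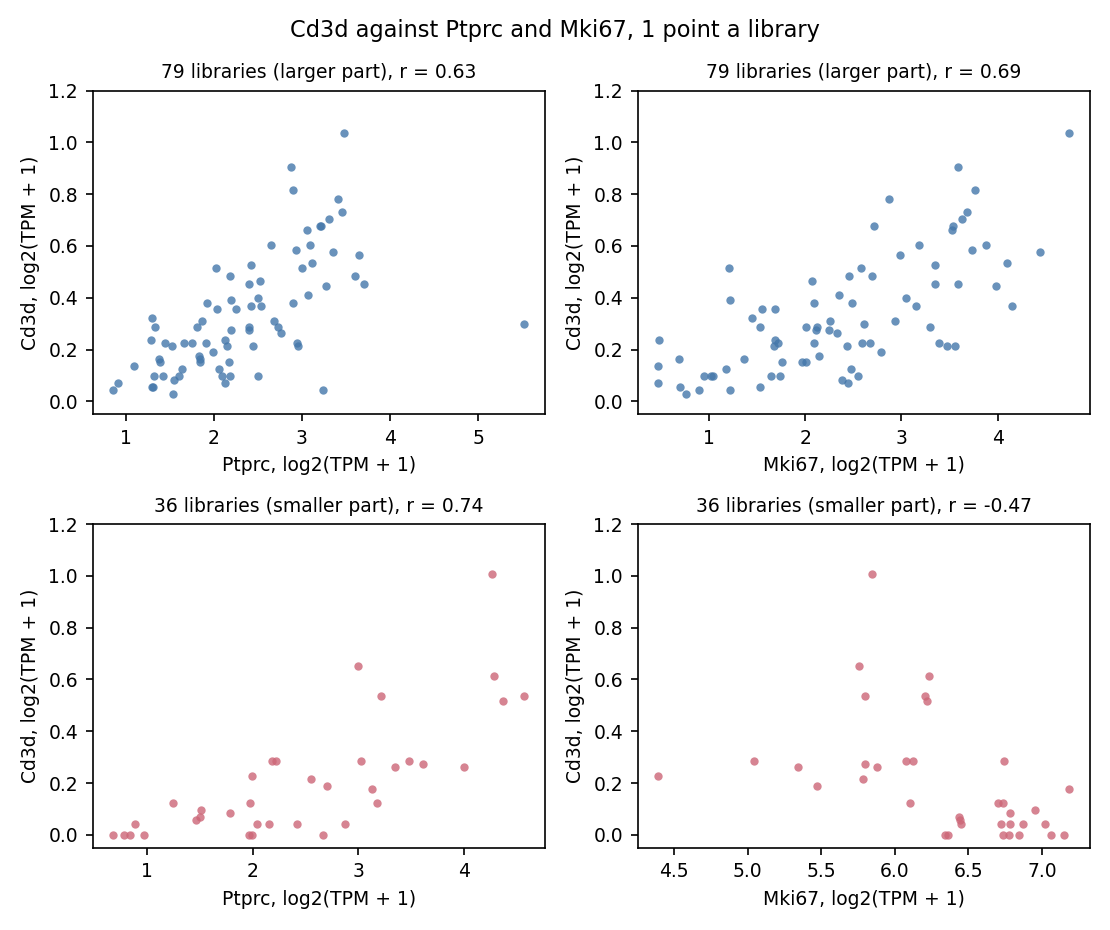
Cd3d against Ptprc (left column) and Mki67 (right column) as log2(TPM + 1), 1 point a library, in the 79 libraries (upper row) and the 36 libraries (lower row). Cd3d is higher with Ptprc in both rows (r = 0.632 and 0.744), and with Mki67 it is higher in the upper row (r = 0.695) and lower in the lower row (r = -0.469).

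A fit of all 3 genes at once (limma) gave each member's slope per SD of 1 gene with the other 2 held fixed, on the log2(TPM + 1) scale. In the 79 libraries 7 of 9 members had a called positive slope on Ptprc, against 59.6% of all genes, and 7 a called positive slope on Mki67, against 32.3%. The median Ptprc slope was 0.112 for the members and 0.105 for all genes, so on Ptprc the members were near the typical gene. The median Mki67 slope was 0.0979 for the members and 0.0327 for all genes. For Gzmb the Mki67 slope was 0.386 ± 0.0577 (SE, adjusted limma p = 6.87e-08) and the Ptprc slope 0.205 ± 0.0580. For Nkg7 they were 0.315 ± 0.0496 and 0.263 ± 0.0498. Over the part Cd4 had a called slope on Ptprc (0.132 ± 0.0282) but not on Mki67 (-0.0108 ± 0.0281). Cd8b1 had a called slope on Mki67 (0.0942 ± 0.0225) but not on Ptprc (0.0352 ± 0.0226). These slopes were not tested against each other. No member had a called slope on Chga by limma, none at an unadjusted p under 0.05 either, against 20.6% of all genes called. Over the smaller part 6 of 9 members had a called positive slope on Ptprc, against 6.97% of all genes, with Cd3g at 0.479 ± 0.0780 and Nkg7 at 0.434 ± 0.0710. With Ptprc and Chga held fixed, 1 member, Gzma, had a called Mki67 slope, against 11.7% of all genes called negative. The Mki67 slope was below 0 for 8 of the 9. On Chga 2 members were called, Gzma with a slope of -1.43 ± 0.207 and Cd4 with 0.143 ± 0.0450 (adjusted limma p = 0.0208). That count is near the 20.2% of all genes called. These fits pool the separate groups of libraries named above. In the 36 they also pool the 5 libraries of highest Gzma and the 4 of lowest Chga with the rest. Both groups were under the 6 libraries that the rule for separate groups requires. No joint fit without them is given, so how far the Gzma slopes rest on them was not tested.

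Gzma reached levels that no other member did. In 5 libraries of the smaller part it reached 100.02 TPM (W1050), 78.6 (W1790), 53.98 (W1118), 44.42 (W370) and 26.25 (W1915). The other 31 libraries of that part were at 1.47 TPM or less, and the highest of the larger part was 6.95 TPM (W4434). Gzmb in the same 5 libraries was 0.250, 0.170, 0.180, 0.130 and 1.68 TPM, and Nkg7 1.71, 1.00, 0.240, 0.140 and 2.2 TPM. Gzmb was thus at 0.250 TPM or less in 4 of the 5, and the fifth, W1915, held the highest Prf1 of all libraries (0.50 TPM). Some other granzymes of the cytotoxic list were high in W1050 and W1915. Gzmd was 42.19 TPM in W1050 and 6.41 TPM in W1915, and Gzme 27.74 and 6.85 TPM. Both genes were listed at 0 in most libraries (89 and 86). Gzmc was 7.92 and 3.23 TPM in W1050 and W1915, and Gzmg 2.8 and 0.5 TPM. Gzmf (0.09 and 0.15 TPM) and Gzmk (0.48 and 0.34 TPM) were low in both.

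The 4 libraries of the smaller part with Chga at 2.55 TPM or less were W1050, W1790, W1118 and W1915, all among the 5 with high Gzma. The other 32 libraries had at least 21.1 TPM of Chga, W370 among them with 115.2 TPM. Over the smaller part Gzma was called negative with Chga, the 1 member of 9, while 18.5% of all genes were called negative (r = -0.720, adjusted permutation p = 0.00137). By rank there was no call (rho = -0.254, adjusted p = 0.635), and without these 4 libraries r was 0.0864. Gzmb, inside its 30 lower libraries, was called negative with Chga (r = -0.678, adjusted permutation p = 0.00272; rho = -0.476), with r = -0.461 once the 2 most extreme libraries of Chga were left out. These 30 lay at 0.250 TPM of Gzmb or less and held W1050, W1790 and W1118, all of low Chga. Over all 36 libraries Gzmb was not called with Chga (adjusted permutation p = 0.209), nor without the 4 of low Chga (adjusted permutation p = 0.651). The relation of Gzma to Ptprc in this part (r = 0.486, adjusted permutation p = 0.00951) was 0.159 without the 4, was not called without W1790 (r = 0.399, adjusted p = 0.0526), and was 0.630 (adjusted permutation p = 0.00143) without the 5 libraries of high Gzma. The share of TPM in the 20 top genes moved with Gzma in this part (r = -0.784, rho = -0.416, adjusted permutation p = 3.70e-05 over 100 relations). Its part in these results was not tested.

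**Figure D5:**
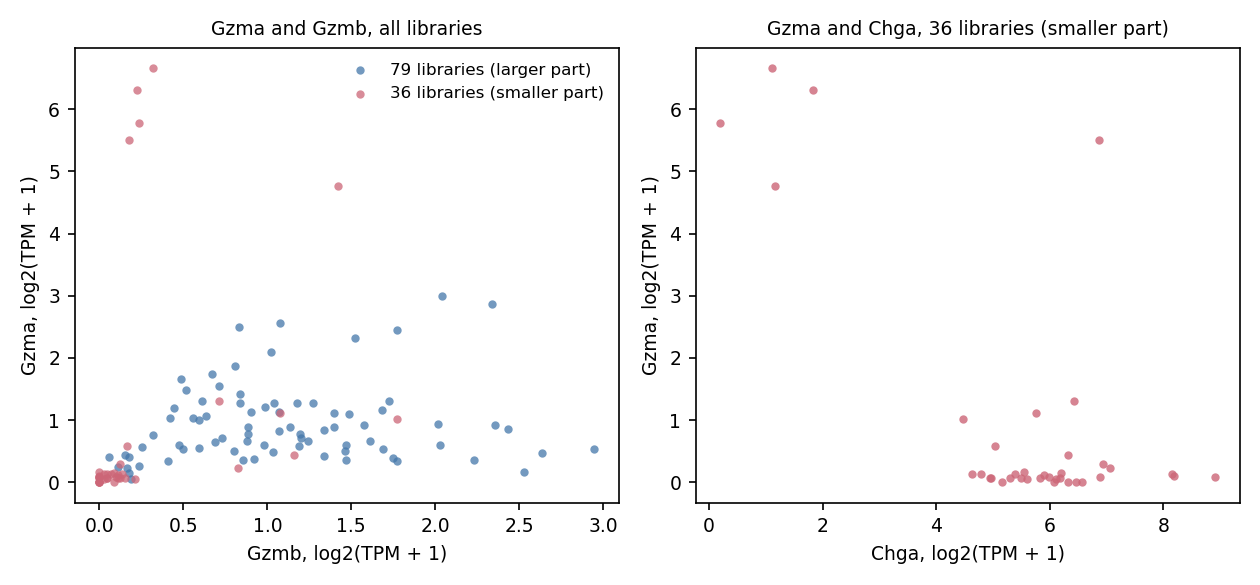
Gzma against Gzmb in all libraries (left) and Gzma against Chga in the 36 libraries of the smaller part (right), as log2(TPM + 1), 1 point a library. The 5 points of highest Gzma (26.2 TPM or more) lie at low Gzmb except W1915, and 4 of the 5 lie at Chga of 2.55 TPM or less.

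Over the larger part Gzma was not called with any other member, with Ptprc, Mki67 or Chga, nor with any gene of the 4 lymphocyte lists. Only 20 of 23250 genes (0.0860%) were called positive with it, while 1001 were called negative, and 4 of the 20 belonged to the 7 genes of the mast cell list: the chymases Cma1 and Mcpt4, the tryptase Tpsb2 and the IgE receptor chain Fcer1a. The adjusted permutation p was 0.0332 for Cma1, 0.0361 for Tpsb2, 0.0443 for Mcpt4 and 0.0450 for Fcer1a, and with no filter on low values none was called. Inside the 69 libraries of lower Gzma, up to 1.91 TPM, r was 0.400 for Cma1, 0.381 for Tpsb2, 0.367 for Fcer1a, 0.345 for Mcpt4, 0.313 for Cpa3, 0.245 for Ms4a2 and -0.181 for Kit. Over the smaller part 6 of the 7 were called positive and Kit negative, with 29.4% of all genes called positive. The summed TPM of the list, Kit included, had r = 0.0157 with Gzma there (rho = -0.259). Inside the 31 libraries of lower Gzma in that part, r was 0.726 for Cpa3, 0.692 for Fcer1a, 0.666 for Mcpt4 and 0.660 for Tpsb2. It was 0.658 for Cma1, 0.321 for Ms4a2 and -0.329 for Kit. By rank these were 0.522, 0.299, 0.411, 0.454, 0.538, 0.136 and -0.416. Over all 36 libraries mast cell genes were not alone in being called with Gzma. In the same 36 libraries Gzma was called positive with 11 of 19 T cell receptor signalling genes, 8 of 12 identity genes, 12 of 18 cytotoxic and natural killer genes and 6 of 11 checkpoint genes, and negative with 0, 1, 1 and 1 of them. It was also called positive with 10 of 10 pan-leukocyte, 9 of 10 macrophage and 6 of 10 stroma genes, and negative with 8 of 10 neuroendocrine genes. These counts pool the 5 libraries of highest Gzma with the rest, and no count without them is given. W1050, with the highest Gzma, also held the highest Cma1 (34.66 TPM), Mcpt4 (23.92), Tpsb2 (28.88) and Cpa3 (19.47) of all libraries. Inside the 10 libraries of higher Gzma in the larger part, Gzma was called with Mki67 (r = 0.899, adjusted permutation p = 0.0297; rho = 0.879; 0.793 without the 2 farthest libraries).

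Other genes of the pathway were counted against Cd3e. Over 4 lists (T cell receptor signalling, T cell identity, cytotoxic and natural killer, checkpoint and activation), 60 of 69 genes could be tested. In the 79 libraries 49 were called positive with Cd3e and 1 negative, with 56.9% of all genes called positive. Over the smaller part 27 were called positive and 0 negative, with 4.14% of all genes called positive. Cd3e itself fell into separate groups there, so the 27 are a count over both groups, and without W4437 they fell to 20. Without W4125, 50 were called positive in the larger part.

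Of the T cell receptor signalling list 17 of 19 tested genes were called positive in the 79 libraries and 13 of 19 in the 36. The kinase Zap70 (r = 0.686) and the receptor beta constant chains Trbc2 (0.684) and Trbc1 (0.671) were highest in the 79. The receptor alpha constant gene Trac had a median of 0.320 TPM and was listed at 0 in 8 libraries, Trbc1 a median of 0.50 TPM and 14 libraries at 0, and Cd247, the zeta chain, a median of 0.70 TPM.

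Of the T cell identity list 7 of 12 genes were called positive and 1, Satb1, negative (r = -0.278) in the 79 libraries, close to the background, and 1 of 12 positive in the 36. The highest were the transcription factor Runx3 (r = 0.583), the lymph node homing receptor Ccr7 (0.534), Bcl11b (0.493) and the interleukin-7 receptor Il7r (0.472). The defining genes Tcf7 (median 1.33 TPM) and Lef1 (median 0.610 TPM) reached 19.27 and 16.35 TPM in W1915, where Cd3e was at 0.250 TPM. With Cd3e in the 79 libraries, Tcf7 was not called (r = -0.206, adjusted permutation p = 0.102) and Lef1 was (r = 0.427, adjusted permutation p = 5.57e-04). Neither was called in the 36.

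Of the cytotoxic and natural killer list 15 of 18 tested genes were called positive in the 79 libraries and 10 of 18 in the 36. Highest were the interleukin-2 receptor chain Il2rb (r = 0.757), the cysteine protease Ctsw (0.738), the transcription factor Tbx21 (0.699) and the chemokine Xcl1 (0.698). Of the checkpoint and activation list 10 of 11 and 3 of 11 were called positive, led in the 79 libraries by the inhibitory receptor Tigit (r = 0.755), then Tnfrsf9 (0.697), Tnfrsf18 (0.653) and Cd69 (0.648). The defining checkpoint genes were low, with medians of 0.10 TPM for Pdcd1, 0.0600 TPM for Ctla4 and 0.330 TPM for Lag3. Of 10 chemokine and chemokine receptor genes that attract T cells 9 and 6 were called positive, with Cxcr6 highest (r = 0.681).

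The 3 protein-coding genes nearest to each member were taken by r in the 79 libraries. Nkg7 was nearest to Xcl1 (r = 0.944), Il2rb (0.938) and Ctsw (0.937), and Gzmb to Xcl1 (0.917), Cd7 (0.906) and Ctsw (0.895). Cd3g was nearest to Il2rb (0.885), Cd96 (0.870) and the integrin Itgae (0.869), Cd3d to Zap70 (0.836), Ptprcap (0.830) and Pglyrp2 (0.828), and Cd8a to Cd96 (0.897), Il2rb (0.862) and Pglyrp2 (0.859). Cd3e was nearest to Hsd11b2, a steroid dehydrogenase (0.804), Gm17509 (0.776) and the T cell kinase Txk (0.770). Without W4125, which has the highest Cd3e, these values were 0.626, 0.644 and 0.681. Prf1 was nearest to Klrk1 (0.775), Il2rb (0.746) and Ifi208 (0.731). Ranked by r over both of their groups of libraries, Cd4 was nearest to Il7r, Arl5c and Lat, Cd8b1 to Lat, Pglyrp2 and Themis, and Gzma to Csrp2, Cma1 and Gprc6a. These r values are descriptions over libraries that also share their TPM scaling.

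Lists of other cell types were counted with Cd3e in the same fits, against 56.9% of all genes called positive in the 79 libraries and 4.14% in the 36. In the 79 libraries 10 of 10 proliferation genes, 9 of 10 pan-leukocyte, 7 of 10 macrophage, 6 of 8 dendritic cell, 4 of 8 tested B cell and plasma cell, 2 of 6 neutrophil, 1 of 7 mast cell, 1 of 10 neuroendocrine and 1 of 10 stroma genes were called positive. The macrophage and dendritic cell counts were near the share of all genes, and the B cell, neutrophil, mast cell, neuroendocrine and stroma counts were below it. Over the smaller part macrophage genes were called in 10 of 10, pan-leukocyte in 9 of 10, B cell and plasma cell in 4 of 8, dendritic cell in 2 of 8, neutrophil in 1 of 6, stroma in 1 of 10, and proliferation, neuroendocrine and mast cell genes in none. Of 10 prostate luminal genes 3 were called positive in each part, and 2 negative in the 79. In the 79 the positive ones were Cdh1 (r = 0.562), Epcam (0.434) and Krt8 (0.413). The negative ones were Tgm4 (r = -0.271) and Pbsn (-0.359). The macrophage list summed to between 24.5 and 1605.6 TPM, with Csf1r, Adgre1 and Cd68 above 0 in every library. The B cell and plasma cell list summed to between 1.10 and 477.2 TPM. Cd3d followed the macrophage sum with r = 0.533 (rho = 0.619, adjusted permutation p = 3.70e-05) in the 79 libraries and r = 0.703 (rho = 0.768, adjusted permutation p = 3.70e-05) in the 36. The luminal sum weighs abundant genes most, with Tgm4 at a median of 2963 TPM beside 7390 TPM for the sum. Against the luminal sum Cd3d had r = -0.399 (rho = -0.444, adjusted permutation p = 7.27e-04) and r = 0.624 (rho = 0.640, adjusted permutation p = 3.00e-04), opposite in sign. Against the share of TPM in the 20 top genes it had r = -0.521 (rho = -0.509, adjusted permutation p = 3.70e-05) and r = -0.347 (rho = -0.319, adjusted permutation p = 0.0539). In the 79 libraries Ptprc and Mki67 also moved with that share, with r = -0.690 (rho = -0.716) and -0.628 (rho = -0.625). The adjusted permutation p was 3.70e-05 for both. These were adjusted over the 100 relations of this kind computed. After removal of the 20 top genes 8 and 7 members were called with Ptprc. The part of these cell types, of that share and of the number of genes in the relations of the members was not tested.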

How the data were processed

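Total RNA of 115 (TRAMP x WSB/EiJ) F2 prostates was depleted of ribosomal RNA and sequenced on an Illumina HiSeq. The authors trimmed reads (Trimmomatic), mapped them with Bowtie2 2.2.5 against transcripts of both parental alleles built by Seqnature (GRCm38), and ran RSEM 1.2.20 for gene levels, with CASAVA 1.8.2 also named in the submitters' processing notes. The deposited values are TPM. They keep no depth, so no count test was run. The table holds more libraries than the paper's text gives, which does not name them, so all were used.

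The members and gene lists were chosen with earlier results of these data known. Parts of the first principal component, and separate groups of libraries of a gene, were called when a mixture of 2 normals lowered the BIC by over 10, Ashman D was over 2 and each held at least 6 libraries. Groups under 10 libraries were not tested. Pearson's r on log2(TPM + 1) was tested with 100000 two-sided permutations for the 23251 genes whose mean was 0.1 TPM or more, adjusted by Benjamini-Hochberg over all of them at 0.05, and rho by permutation. Joint slopes came from limma 3.58.1 (eBayes with trend). Named genes were the members, Ptprc, Mki67 and Chga, the 3 protein-coding genes nearest to each member in the 79 libraries, the first 3 genes of each list, and the 4 genes of each lymphocyte list with the highest r with Cd3e. Mast cell genes, single libraries, other granzymes, Satb1, Cxcr6 and the genes behind the luminal calls were named after their values were seen. A few genes that the rule names are not reported here. On simulated data of 23248 genes, 93 of 100 genes seeded at r = 0.5 with Ptprc and 100 of 100 at r = 0.7 were recovered by permutation, with 17 others called, and 87 and 100 by limma, with 16 others. The simulation used 79 libraries drawn from both parts, with the values of each gene shuffled. It thus held none of the relations that real genes share, and no run had the size of the smaller part. Positions came from GENCODE M21 and promoters from RefSeq. Copies were sought with BLAST+ 2.17.0 (95% identity over 80% of a transcript). Python 3.11.15 and R 4.3.3 were used. Alternatives are given in the closing section.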

Additional observations from a re-analysis of the deposited data

How the results depend on the processing

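No paired analysis was possible because every library belongs to 1 group. Of 124 counts recomputed under another setting, 17 moved by more than 1.5 times. Requiring a mean of at least 1 TPM left 4 members (Cd3g, Gzma, Gzmb and Nkg7), so the members called fell to 3 with Ptprc and 3 with Mki67 in the 79 libraries and to 4 with Ptprc in the 36 (all those left), and the pairs called to 3 in each part. Of the members called with Chga in the 36 libraries, reported as 1, none (0) was called by rank correlation, without the 5 libraries of high Gzma or without the 4 of low Chga, and 2 (Gzma and Nkg7) without W4437. Pairs called there fell to 12 without W4437. A Mki67 slope in the joint model of the 36 libraries, reported for 1 member, was called for 2 with a pseudocount of 0.1 and for 2 after removal of the 20 top genes. The mast cell genes called with Gzma were 7 after that removal (6 positive, 1 negative) and 0 with no filter. Detected members were 9 at 0.1 TPM, 0 at 5 TPM and 4 after removal of the top genes. Genes of the 4 lymphocyte lists called with Cd3e in the 79 libraries went from 50 to 35 under median-of-ratios scaling. The settings that leave out W4125, W4126, W4437, W370, W4419, W1790 or the libraries of high Gzma or low Chga, the groups inside a part and all settings for the mast cell list were chosen after seeing the data. Without W78022, whose label is close to that of another library, no count moved. TPM keeps no depth, so how far counting error sets the values near 0 is unknown. The depth of each library and the age, tumor weight and sampled lobe of each mouse were not used here.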
